A study of Homo sapiens with 5 samples.

Results

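The genes MCOLN1, MCOLN2 and MCOLN3 encode the TRPML cation channels, and TPCN1 and TPCN2 encode the TPC cation channels; all of these proteins sit in the membranes of endosomes and lysosomes. Their transcripts were followed through every probe set that carries 1 of these 5 symbols and no other, which gave 15 of the 54675 probe sets on the array. MCOLN1 had 1 probe set, MCOLN2 had 2, MCOLN3 had 4, TPCN1 had 3 and TPCN2 had 5. The members were selected on the signal of MCOLN2, which stood out on the leukotriene C4 array, so every value of leukotriene C4 against unstimulated cells is a description of that choice and supports nothing further.

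The cells were of the human monocytic line MonoMac6, an established cell line. Each of the 5 arrays held total RNA of 1 condition: unstimulated cells, or cells kept for 12 h with 100 nM of a leukotriene (B4 or C4) or of a lipoxin (A4 or B4), all added from stocks in DMSO. The sources used here do not say whether DMSO was also given to the unstimulated cells. With 1 array per condition there is no replicate error, so no difference below has a test, an SD or a p-value. A difference in 1 array cannot be told apart from variation between cultures or hybridisations. The question asked by the design is how these lipid mediators, some known for promoting and some for resolving inflammation, alter monocytic gene expression.

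TRPML channels pass calcium and other cations out of endosomes and lysosomes and open when a phosphoinositide of those membranes binds them. TRPML1, the product of MCOLN1, is found in lysosomes throughout the body, and its loss causes the storage disease mucolipidosis type IV. Calcium leaving through it activates calcineurin, which sends the transcription factor TFEB to the nucleus, where TFEB switches on lysosomal genes through the E-box CACGTG. TRPML2, from MCOLN2, is largely a channel of lymphoid and myeloid cells; in activated macrophages it is induced by Toll-like receptor ligands and assists the release of the chemokine CCL2. TRPML3, from MCOLN3, lies in early endosomes and autophagosomes and is best known from inner-ear hair cells. TPC channels carry sodium and calcium and respond to the same phosphoinositide and, through accessory proteins, to the messenger NAADP.

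The promoters of 4 of the 5 genes were found by symbol in the RefSeq table (build GRCh38.p14). MCOLN2 had no entry there, so its promoter was not searched. The promoters of MCOLN1, MCOLN3 and TPCN1 are shown, each as the 250 bases before the annotated start, 5′ to 3′ on the gene's strand. MCOLN1 is shown because it held the E-box that TFEB reads, MCOLN3 as the gene next to MCOLN2, and TPCN1 because its probe sets of highest signal ran the other way from those of MCOLN1. Capitals mark CACGTG and the GC box GGGCGG on either strand. The windows are chr19:7522374-7522623 (+ strand) for MCOLN1, chr1:85048501-85048750 (- strand) for MCOLN3 and chr12:113221214-113221463 (+ strand) for TPCN1.
MCOLN1: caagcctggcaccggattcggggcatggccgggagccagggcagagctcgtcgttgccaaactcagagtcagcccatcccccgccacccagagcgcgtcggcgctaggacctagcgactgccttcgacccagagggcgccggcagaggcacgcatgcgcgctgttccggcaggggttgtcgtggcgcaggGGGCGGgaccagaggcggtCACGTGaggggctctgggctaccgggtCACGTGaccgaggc
MCOLN3: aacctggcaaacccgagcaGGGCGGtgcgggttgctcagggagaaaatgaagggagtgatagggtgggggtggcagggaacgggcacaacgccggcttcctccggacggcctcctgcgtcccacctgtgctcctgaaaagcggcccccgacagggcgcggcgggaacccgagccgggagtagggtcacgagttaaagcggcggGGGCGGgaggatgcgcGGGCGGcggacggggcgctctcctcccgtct
TPCN1: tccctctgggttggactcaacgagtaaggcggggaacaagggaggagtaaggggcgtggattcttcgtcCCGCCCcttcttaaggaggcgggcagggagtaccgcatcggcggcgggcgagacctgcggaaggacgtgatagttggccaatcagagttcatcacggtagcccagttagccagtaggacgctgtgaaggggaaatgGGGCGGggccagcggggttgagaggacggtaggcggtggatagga

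The MCOLN1 window held CACGTG at 2 places, beginning 41 and 14 bases before the start, and a GC box beginning 60 bases before it. Across 35116 promoters of the same length, 6.34% held CACGTG, and no match was found in the windows of MCOLN3, TPCN1 and TPCN2. The GC box, present in 42.6% of promoters, occurred 3 times in MCOLN3, 2 times in TPCN1 and 3 times in TPCN2. The PU.1 core GAGGAA (23.6% of promoters) was found once in MCOLN3 and once in TPCN2, and the NF-kappaB site (9.96%) once in TPCN2. The AP-1 site TGANTCA (6.57%) and the interferon-stimulated response element core (3.02%) were found in none of the 4 windows. Both strands were searched for every motif, and the matches named did not overlap one another. The windows were rich in G and C, at 70.8% for MCOLN1, 70% for MCOLN3, 62% for TPCN1 and 66% for TPCN2, beside a median of 58% over all promoters.

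Signals were brought to a common scale by 1 factor per array, and a floor was set at a signal of 48.7, the 50th percentile of mean log2 signal. A probe set over the floor on at least 1 array is called measured: this held for 14 of the 15 member probe sets, 12 of which were over the floor on all 5 arrays. The exception was TPCN2 231978_at, which stayed between 4.50 and 31.2 and is not counted further. Since a probe set can pass through the array on which it is high, these 14 are not the whole family. In the text below, signals are on the linear scale and differences are log2 of the stimulated over the unstimulated signal, and signals of different probe sets are not compared with each other.

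The arrays had been scaled alike before deposit, since the trimmed mean was 500.1 on each, and the factors applied here were 0.978 to 1.03. The 3′ over 5′ ratio was 1.0 to 1.06 for GAPDH and 1.1 to 1.13 for ACTB. The 18S ribosomal control was uneven: its middle probe set was 16.5-fold over unstimulated on the leukotriene C4 array, against 4.90-fold on the leukotriene B4 array and 1.96-fold and 5.67-fold on the lipoxin A4 and B4 arrays. The size of the rise depended on the probe set. From unstimulated to leukotriene C4, the 5′ and 3′ probe sets of 18S went from 204 to 2855 and from 12712 to 43396. The middle probe set of the 28S ribosomal control went from 1929 to 5556. The part of these controls in any result of the leukotriene C4 array was not tested. The monocytic label was borne out in part, with 7 of 8 monocyte markers over the floor on every array (LYZ at 36107 to 49095, CD14 at 188 to 319) and FCGR1A under it on all of them. Because these are bulk RNA samples, fewer cells of a type and less RNA per cell cannot be told apart.

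**Figure D1:**
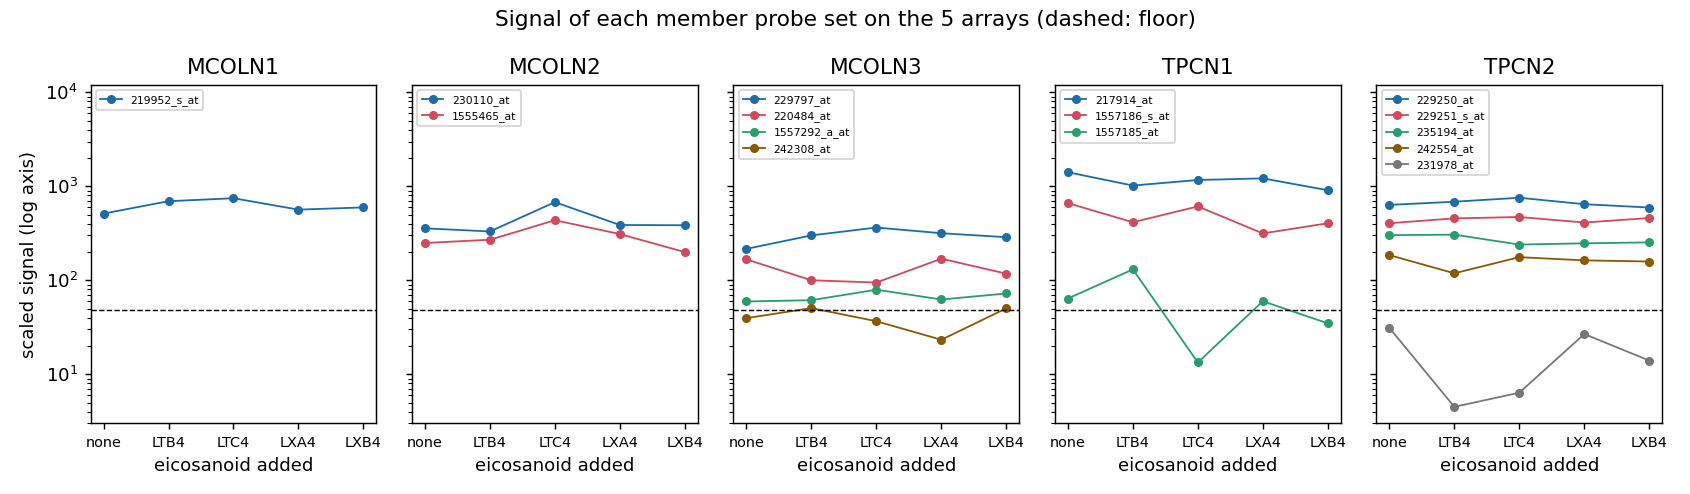
Scaled signal (log axis) of each of the 15 member probe sets on the 5 arrays, 1 panel per gene and 1 point per array, with the floor of 48.7 as a dashed line; none is the unstimulated array, and LTB4, LTC4, LXA4 and LXB4 are leukotriene B4, leukotriene C4, lipoxin A4 and lipoxin B4. Both MCOLN2 lines peak on the leukotriene C4 array, and TPCN2 231978_at lies under the floor throughout; lines only join points of 1 probe set.

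MCOLN2 signal was highest on the leukotriene C4 array with both of its probe sets. Probe set 230110_at read 357 in unstimulated cells, 331 with leukotriene B4, 679 with leukotriene C4, 388 with lipoxin A4 and 386 with lipoxin B4. The leukotriene C4 array stood apart, 1.75-fold over the next highest, while the other 4 arrays lay within 1.17-fold of each other. The difference from unstimulated was 0.93 with leukotriene C4 (1.90-fold), -0.11 with leukotriene B4, and 0.12 and 0.11 with lipoxins A4 and B4. Neighbouring arrays in the order below leukotriene C4 differed by 1.01-fold (lipoxin A4 over lipoxin B4), 1.08-fold (lipoxin B4 over unstimulated) and 1.08-fold (unstimulated over leukotriene B4). No spread over samples exists against which such steps could be judged.

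MCOLN2 probe set 1555465_at read 249.6 in unstimulated cells, 270.3 with leukotriene B4, 436 with leukotriene C4, 311 with lipoxin A4 and 199.7 with lipoxin B4. Leukotriene C4 was again highest, but the lead over the next array, lipoxin A4, was 1.4-fold and the other 4 arrays spread over 1.56-fold. The difference from unstimulated was 0.81 with leukotriene C4 (1.75-fold), 0.11 with leukotriene B4, and 0.32 and -0.32 with lipoxins A4 and B4. The probe sets of MCOLN2 thus lay on opposite sides of the unstimulated array with leukotriene B4 and with lipoxin B4, and both above it with leukotriene C4 and lipoxin A4.

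Neither MCOLN2 probe set reached a 2-fold difference on the leukotriene C4 array. Of 29424 measured probe sets with 1 symbol, the member itself included here and below, 555 (1.89%) were as high or higher against unstimulated than 230110_at and 842 (2.86%) than 1555465_at. A lead over the next array as large as theirs was seen for 180 (0.612%) and 708 (2.41%) of them. Among the 1784 probe sets whose mean signal lay within 0.25 log2 units of that of 230110_at, 0.336% were as high or higher with leukotriene C4, and the same share was 1.76% of 1700 for 1555465_at. Of 7536 genes with at least 2 measured probe sets, 27 (0.358%) had every one of them at least 1.5-fold higher on that array, MCOLN2 included. These ranks restate why the gene was picked and are given as a description.

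MCOLN1 was higher than unstimulated on all 4 eicosanoid arrays, most with the leukotrienes. Its single probe set, 219952_s_at, read 513 in unstimulated cells, 695 with leukotriene B4, 747 with leukotriene C4, 565 with lipoxin A4 and 597 with lipoxin B4. The differences were 0.44, 0.54, 0.14 and 0.22 in that order, the largest being 1.46-fold. The leukotriene C4 array exceeded the leukotriene B4 array by 1.08-fold, and the 4 differences share the 1 unstimulated array, so they are not separate observations of it.

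The 4 probe sets of MCOLN3, the hair-cell and early-endosome member, did not move together. Probe set 229797_at read 216 in unstimulated cells, 301 with leukotriene B4, 365 with leukotriene C4, 317 with lipoxin A4 and 288 with lipoxin B4. Unstimulated was lowest, and the differences were 0.48, 0.75, 0.55 and 0.41. Probe set 220484_at read 167, 100.1, 94.8, 169.8 and 118 on the same arrays, with differences of -0.74, -0.82, 0.02 and -0.50; here both leukotriene arrays were lowest. Probe set 1557292_a_at lay near the floor, at 59.6, 61.5, 79.5, 62.5 and 72.4, with its highest signal also on the leukotriene C4 array. The last, 242308_at, was over the floor on the leukotriene B4 (50.6) and lipoxin B4 (50.4) arrays only and at 23.3 to 39.6 on the others. The gene's direction with leukotriene C4 therefore rests on the choice of probe set. It was 0.75 by 229797_at, the probe set of highest mean signal, 0.42 by 1557292_a_at and -0.82 by 220484_at. With 242308_at both sides were under the floor, and the mean of all 4 was 0.09.

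TPCN1, whose product TPC1 is found in endosomes, had lower signals on all 4 eicosanoid arrays with its probe sets of higher signal. Probe set 217914_at read 1413 in unstimulated cells, 1019.9 with leukotriene B4, 1169 with leukotriene C4, 1216 with lipoxin A4 and 909 with lipoxin B4. The unstimulated array was highest and the differences were -0.47, -0.27, -0.22 and -0.64, the largest being 1.55-fold lower. Probe set 1557186_s_at read 663, 415, 611, 316 and 405 on the same arrays, with differences of -0.67, -0.12, -1.07 and -0.71. Lipoxin A4 was lowest there, 2.10-fold under unstimulated, whereas with 217914_at it was the eicosanoid array nearest to unstimulated. The order of the arrays thus depended on the probe set.

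The third TPCN1 probe set, 1557185_at, was dim and ran otherwise. It read 64.0 in unstimulated cells, 131 with leukotriene B4 and 59.9 with lipoxin A4, and lay under the floor with leukotriene C4 (13.4) and lipoxin B4 (34.9). Leukotriene B4 was 2.04-fold over unstimulated, while both arrays under the floor were at least 1.32-fold lower. The leukotriene B4 array was thus the highest of the 5 for this probe set and below unstimulated for the other two of the gene.

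TPCN2, whose product TPC2 is a lysosomal channel, varied little in its probe sets of higher signal. Probe set 229250_at read 635 in unstimulated cells, 686 with leukotriene B4, 757 with leukotriene C4, 646 with lipoxin A4 and 595 with lipoxin B4, a range of 1.27-fold. Probe set 229251_s_at read 405, 456, 472, 412 and 460.4, within 1.16-fold. Probe set 235194_at read 302, 306, 240.1, 248 and 253, where leukotriene C4 was lowest, and 242554_at read 185, 119, 176, 163 and 159, where leukotriene B4 was lowest. Over these 4 probe sets the differences from unstimulated ran from -0.64 (242554_at, leukotriene B4) to 0.25 (229250_at, leukotriene C4).

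**Figure D2:**
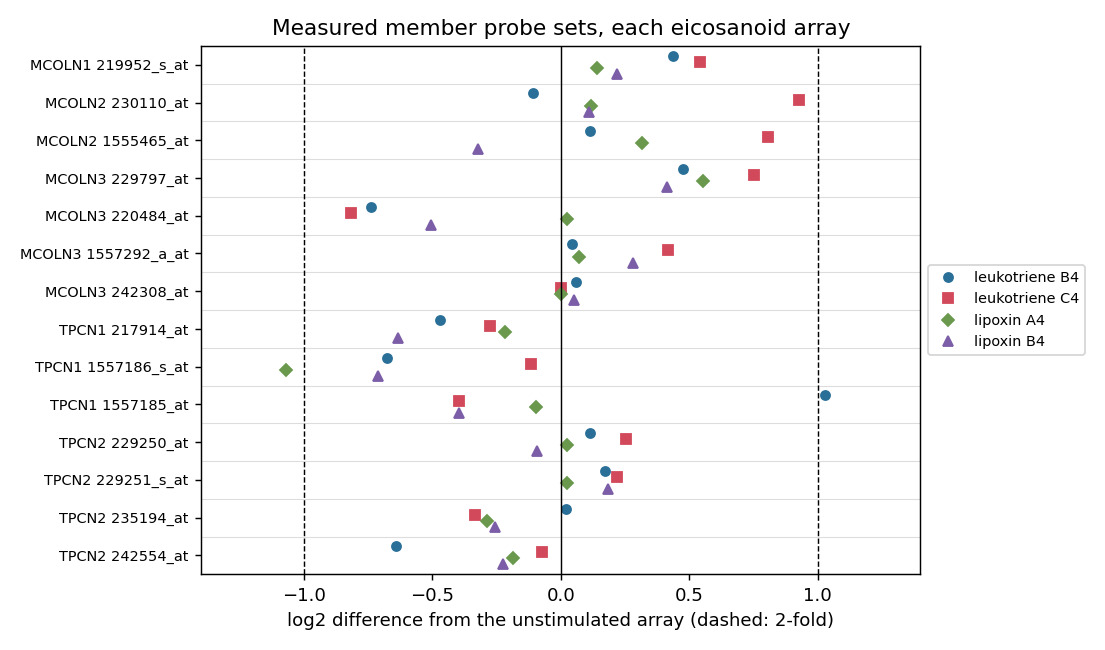
Log2 difference from the unstimulated array (horizontal axis) of the 14 measured member probe sets, 1 row each, with 1 symbol per eicosanoid array and dashed lines at 2-fold; values under the floor were set to it. The leukotriene C4 squares of both MCOLN2 probe sets lie at 0.93 and 0.81, inside the 2-fold line, and the points beyond it are TPCN1 1557186_s_at with lipoxin A4 (-1.07) and TPCN1 1557185_at with leukotriene B4 (1.03).

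Counted at a 2-fold difference, the family held few calls. With leukotriene B4, 1 of 14 measured member probe sets was higher (TPCN1 1557185_at) and 0 were lower, beside 1.05% and 1.78% of all measured probe sets. With leukotriene C4, 0 were higher and 0 lower, beside 1.37% and 1.86%. With lipoxin A4, 0 were higher and 1 was lower (TPCN1 1557186_s_at), beside 0.802% and 1.73%. With lipoxin B4, 0 were higher and 0 lower, beside 0.771% and 2.18%. In sets of 14, counts of 0 or 1 lie near what these shares give, and they single out no array. Over all measured probe sets the split of 2-fold calls moved with the scaling: 31.7% of calls were higher with lipoxin A4 and 26.2% with lipoxin B4, against 50.1% and 47.2% after quantile normalization, which left the member counts as they were.

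At 1.5-fold, 3 member probe sets were higher with leukotriene C4 (both of MCOLN2 and MCOLN3 229797_at) and 1 was lower (MCOLN3 220484_at), beside 6.22% and 7.61% of all measured probe sets; the leukotriene C4 contrast picked the family, so nothing is read from this. With leukotriene B4, 1 was higher (TPCN1 1557185_at) and 3 were lower (MCOLN3 220484_at, TPCN1 1557186_s_at and TPCN2 242554_at), beside 4.91% and 7.4%. With lipoxin A4, 0 were higher and 1 was lower (TPCN1 1557186_s_at), beside 4.06% and 7.21%. With lipoxin B4, 0 were higher and 2 were lower (TPCN1 217914_at and 1557186_s_at), beside 4.12% and 8.76%. The median difference of the 14 was 0.05 with leukotriene B4, 0.11 with leukotriene C4, 0.02 with lipoxin A4 and -0.16 with lipoxin B4, where the medians over all measured probe sets were 0.00, 0.02, 0.00 and 0.00.

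Spread among probe sets narrows as signal grows, so each member was also set beside those within 0.25 log2 units of its own mean signal. By construction 5% of such probe sets fall outside the central 95%, divided equally between those above and those below it. Members above that band were 1 with leukotriene B4 (TPCN1 1557185_at), 4 with leukotriene C4 (MCOLN1, both of MCOLN2, and MCOLN3 229797_at), 0 with lipoxin A4 and 0 with lipoxin B4. Members below it were 0 with leukotriene B4, 0 with leukotriene C4, 1 with lipoxin A4 (TPCN1 1557186_s_at) and 1 with lipoxin B4 (TPCN1 217914_at). For TPCN1 1557186_s_at with lipoxin A4, 0.0555% of 1802 probe sets of like signal were as low or lower, which is 1 probe set, the member itself. The other TPCN1 probe sets read -0.22 and -0.10 on the lipoxin A4 array and did not share that size.

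**Figure D3:**
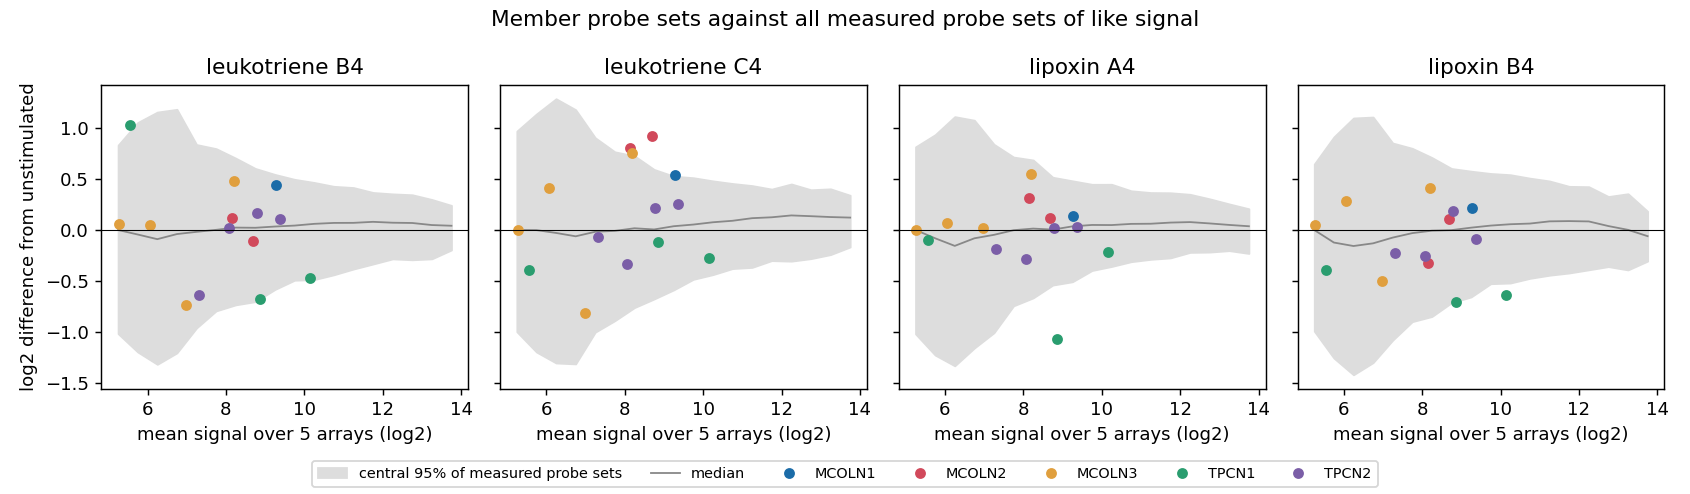
Log2 difference from unstimulated (vertical axis) against mean log2 signal over the 5 arrays (horizontal axis) for the 14 measured member probe sets, 1 panel per eicosanoid; the grey area holds the central 95% of measured probe sets in bins of signal and the grey line is their median. With leukotriene C4, both MCOLN2 points (0.93 and 0.81) lie above the grey area, and with lipoxin A4 the TPCN1 point at -1.07 lies below it.

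The eicosanoids were given at the same dose and time, so their arrays could be set beside each other in 6 pairs, although none of these differences can be tested or given an interval. The compounds are all derived from arachidonic acid; leukotriene C4 carries a glutathione peptide that leukotriene B4 lacks, and lipoxins A4 and B4 are isomers that differ in the place of 1 hydroxyl group. For MCOLN2 230110_at, leukotriene C4 exceeded leukotriene B4 by 2.05-fold, lipoxin A4 by 1.75-fold and lipoxin B4 by 1.76-fold. For MCOLN2 1555465_at it exceeded them by 1.61-fold, 1.4-fold and 2.18-fold. The leukotriene C4 values are those on which the gene was chosen. Between the lipoxin isomers, lipoxin A4 over lipoxin B4 was 1.01-fold for 230110_at and 1.56-fold for 1555465_at, so the probe sets gave unlike answers.

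Pairs at 2-fold involved only MCOLN2 and TPCN1. Leukotriene C4 over leukotriene B4 gave 1 higher (MCOLN2 230110_at; 1.52% of all measured probe sets) and 1 lower (TPCN1 1557185_at, at least 2.68-fold; 1.27%). TPCN1 1557185_at was also lower than with leukotriene B4 in lipoxin A4 (2.18-fold; 1% of all) and lipoxin B4 (at least 2.68-fold; 1.16%), with 0 higher in either pair (0.809% and 0.574% of all), all 3 pairs resting on the 1 leukotriene B4 value of 131. Lipoxin B4 against leukotriene C4 gave 1 lower (MCOLN2 1555465_at, 2.18-fold; 1.62%) and 0 higher (0.788%). Lipoxin A4 against leukotriene C4 and lipoxin B4 against lipoxin A4 gave 0 in either direction, beside 0.975% higher and 1.53% lower, and 0.619% higher and 0.938% lower, of all measured probe sets.

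MCOLN2 and MCOLN3 lie side by side on chromosome 1, while MCOLN1 lies on chromosome 19, TPCN1 on 12 and TPCN2 on 11. The 3 measured genes on the MCOLN2 side are LPAR3, SSX2IP and CTBS, and those on the MCOLN3 side are MCOLN3 itself, SYDE2 and C1orf52, with DNAI3 between MCOLN3 and SYDE2 not measured. LPAR3, a receptor for lysophosphatidic acid, read 412 in unstimulated cells and 330.3 with leukotriene C4, a difference of -0.32. On that array SSX2IP differed by 0.10, CTBS, the lysosomal enzyme chitobiase, by 0.33 and C1orf52 by 0.20. SYDE2 was over the floor only in unstimulated cells (54.6), so its differences are bounds and are not given a size. LPAR3, SSX2IP, CTBS and C1orf52, each read from its brightest probe set, differed from unstimulated by at most 0.33 on the 4 arrays, against 0.93 for MCOLN2 with leukotriene C4. The adjacent MCOLN3 read 0.75 with leukotriene C4 by its brightest probe set, and -0.82 by 220484_at.

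The genes whose pattern over the 5 arrays was most like that of MCOLN2 230110_at, by the root mean square difference of log2 signals centred on each gene's mean, were MCPH1-AS1 (0.05), LAMA4-AS1 (0.07), TIMP3 (0.08), LYZL4 (0.08) and BTN2A3P (0.08). All 5 were dim: their highest signals, each on the leukotriene C4 array, were 93.7, 93.6, 87.6, 97.3 and 117, and 4 of the 5 (all but BTN2A3P) dropped to the floor on at least 1 array. Among 15373 genes compared, MCOLN3 came 1655th, TPCN2 2286th, MCOLN1 2297th and TPCN1 10028th. The order rests on the leukotriene C4 peak for which MCOLN2 was chosen.

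Around these channels, 10 gene lists with 128 genes were read in the same way, each gene by its measured probe set of highest mean signal, and 106 of the genes were measured. Genes at least 2-fold higher and lower numbered 1 and 0 on the leukotriene B4 array, 4 and 1 on the leukotriene C4 array, 0 and 0 on the lipoxin A4 array, and 2 and 1 on the lipoxin B4 array. The shares over all 15374 measured genes were 0.702% and 1.72%, 1.2% and 1.65%, 0.702% and 1.69%, and 0.507% and 1.96% in the same order. Counts this small in lists chosen with earlier results in view set no list apart.

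Genes that control the channels gave no 2-fold call by their probe sets of highest mean signal, although other probe sets of some did. Of 10 measured phosphoinositide makers and breakers 0 reached 2-fold on any array in that reading, and their medians were 0.10, 0.22, 0.15 and 0.22 with leukotriene B4, leukotriene C4, lipoxin A4 and lipoxin B4, where the medians of all genes were 0.00, 0.06, 0.00 and 0.00. PIKFYVE, the kinase that makes the lipid activating TRPML and TPC channels, read 2292 in unstimulated cells, 3061 with leukotriene B4, 2953 with leukotriene C4, 2500.2 with lipoxin A4 and 2871 with lipoxin B4; its 2 other measured probe sets each had 1 side under the floor with leukotriene B4, with bounds of at most -0.22 and at least 1.77. Of 5 measured genes of NAADP signalling 0 reached 2-fold, and the largest difference was that of SARM1, an enzyme that consumes NAD, at -0.94 with lipoxin A4 (117 to 61.1), where its other probe set read 0.23. By their probe sets of highest mean signal the NAADP-binding proteins JPT2 and LSM12 lay between -0.29 and 0.46, but another probe set of JPT2 read -0.96 with lipoxin A4, where the first read 0.46.

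Downstream of lysosomal calcium, 0 of 7 measured calcium sensors and calcineurin subunits reached 2-fold. The calcineurin regulatory subunit PPP3R1 differed by 0.70 with lipoxin A4 (965 to 1570.5), and its other probe set gave 0.98 there. The calcium sensor SYT7 read 67.6 in unstimulated cells and lay under the floor with leukotriene C4 (14.0), at least 1.39-fold lower. Of 13 measured MiT factors and mTORC1 regulators 0 reached 2-fold by their probe sets of highest mean signal. Their 16 other measured probe sets gave 2 values at least 2-fold lower and 0 higher. Both were of FLCN, at -1.23 with leukotriene C4 and -1.45 with lipoxin B4 after flooring, where its first probe set read -0.01 and 0.29. TFEB read 326 in unstimulated cells, 330 with leukotriene B4, 372 with leukotriene C4, 375 with lipoxin A4 and 454 with lipoxin B4. Its other measured probe set ran the other way, at -0.33, -0.17, -0.07 and -0.59 on the same arrays. The 18 measured lysosomal genes of the CLEAR network, the set that TFEB controls, lay between -0.51 (the protease CTSD with leukotriene B4) and 0.37 by their probe sets of highest mean signal, with medians of -0.04, 0.07, -0.01 and -0.06. Their 27 other measured probe sets ranged from -1.60 (the cholesterol transporter NPC1 with lipoxin B4) to 1.07 (the hexosaminidase subunit HEXA with leukotriene B4). Of 11 other endolysosomal channels and exchangers measured, 0 reached 2-fold; the lowest value was -0.68 and the highest 0.60, with CLCN4 only bounded because it was under the floor in unstimulated cells (21.1) and over it with leukotriene C4 (58.2). Their 15 other probe sets ranged from -0.98 (CLCN5) to at least 0.88 (TMEM63A), and the purinergic channel P2RX4 between -0.10 and 0.06.

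Genes past 2-fold by their probe sets of highest mean signal came from 4 lists. RILP, which links lysosomes to dynein, was under the floor in unstimulated cells (23.4) and read 82.7, 114, 95.9 and 111 on the eicosanoid arrays, at least 2.35-fold higher with leukotriene C4 and at least 2.27-fold with lipoxin B4. It was the single call among 8 measured genes of endolysosome positioning and recycling by probe sets of highest mean signal. Another probe set of RAB7A, a GTPase of late endosomes, was under the floor in unstimulated cells. That probe set was at least 2.01 higher with leukotriene C4 on the log2 scale. The highest value among RAB7A's 4 other probe sets also passed 2-fold on the lipoxin B4 (1.38) and leukotriene B4 (1.73) arrays. On the lipoxin A4 array it was 0.70. The lowest value among them was between -0.89 and -0.37 on every eicosanoid array. TRPV5, an epithelial calcium channel, read 58.0 in unstimulated cells and 153 with leukotriene C4 (2.65-fold), with 54.5 to 70.3 on the other arrays, but its other measured probe set differed by 0.16 on that array; it was the single call among 13 measured TRP channels outside the TRPML group.

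CCL2, the monocyte chemoattractant whose release TRPML2 assists in macrophages, read 769 in unstimulated cells, 727 with leukotriene B4, 1807 with leukotriene C4, 777 with lipoxin A4 and 763 with lipoxin B4. The leukotriene C4 array stood 2.35-fold over unstimulated, and the other 4 arrays lay between 727 and 777. It was the single gene past 2-fold among 6 measured chemokines and cytokines tied to TRPML2; on the same array CCL5 differed by 0.38, CXCL10 by -0.57, CXCL2 by -0.52, TNF by -0.33 and IL6 was at least 1.60-fold higher. CCL2 and MCOLN2 are read from the same 5 RNA samples, and no relation between them was computed.

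Among 16 measured interferon and Toll-like receptor genes, MX1 and OAS3 passed 2-fold by their probe sets of highest mean signal, in opposite directions. The 8 other measured probe sets gave 1 value past 2-fold each way. These were RSAD2 at 1.13 with leukotriene B4 and IFIT3 at -1.18 with lipoxin B4, after flooring. MX1, an antiviral GTPase, was under the floor in unstimulated cells (22.8) and read 105 with leukotriene B4, 97.5 with leukotriene C4, 86.5 with lipoxin A4 and 106 with lipoxin B4, at least 2.17-fold, 2.0-fold, 1.78-fold and 2.17-fold higher. OAS3, an antiviral nucleotide synthetase, read 170.5, 86.3, 64.1, 105.0 and 44.2 from unstimulated to lipoxin B4, 2.66-fold lower with leukotriene C4 and at least 3.50-fold lower with lipoxin B4. The median of the list was 0.14 with leukotriene C4 and 0.00 on the other 3 arrays.

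**Figure D4:**
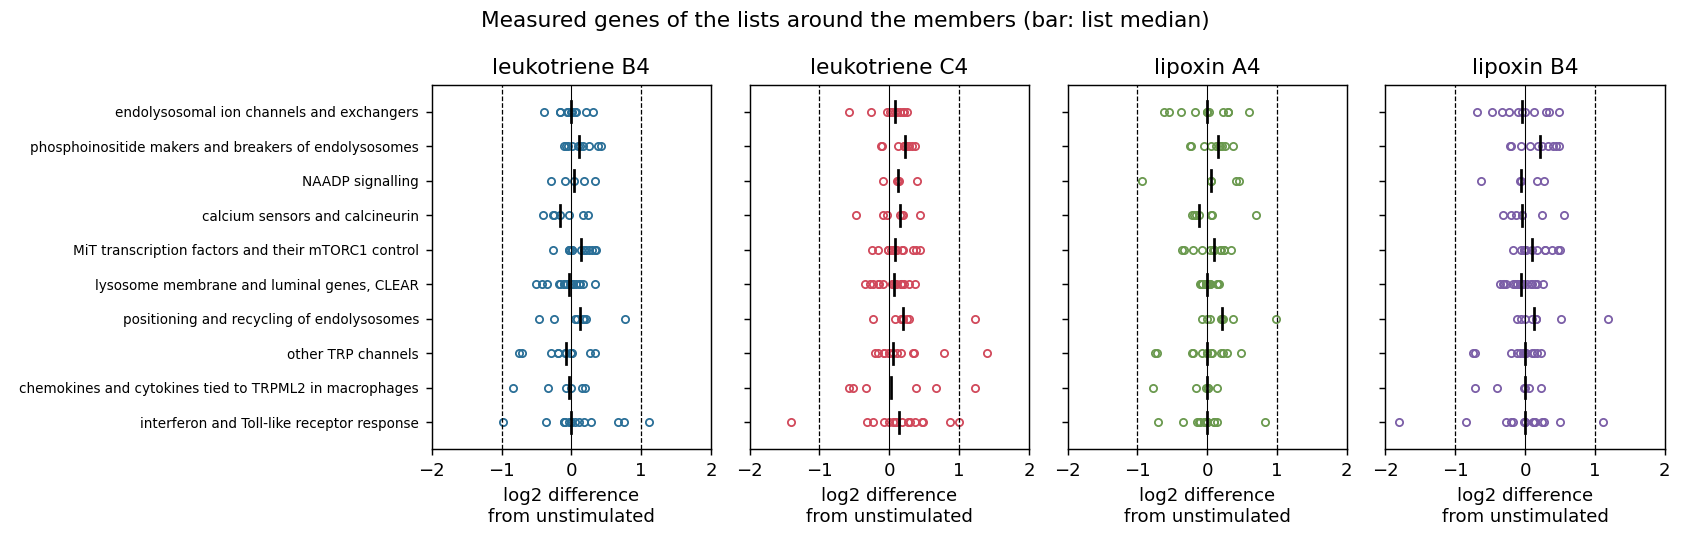
Log2 difference from unstimulated (horizontal axis) of every measured gene in the 10 lists around the channels, 1 row per list and 1 panel per eicosanoid array, with a bar at the list's median and dashed lines at 2-fold. The points beyond the dashed lines are RILP, TRPV5, CCL2, MX1 and OAS3; each gene is drawn by its brightest probe set, by which the CLEAR lysosomal genes lie between -0.51 and 0.37.

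Markers of other cell types were read because MCOLN2 is also a lymphoid gene. The summed signal of 7 B-cell markers was 501 with leukotriene C4, the lowest of the arrays, and 555 to 627 on the others; 4 or 5 of the 7 were over the floor on each array and MS4A1 was at 9.30 to 51.4. Single markers, each read like the sum from its probe set of highest mean signal, did not all follow the sum. CD79A (168), PAX5 (74.7) and MS4A1 (51.4) were highest on the leukotriene C4 array. IGHM (81.5) and CD79B (85.1) were lowest there, and CD22 (33.2) was under the floor. BLK (7.40) was also lowest there, but it was over the floor only with lipoxin A4 (58.6). Directions depended on the probe set. Against unstimulated, the other measured probe sets read 0.43 to 1.02 for IGHM and 0.55 to 0.65 for CD79B on that array. That of CD79A was under the floor there, a bound of at most -0.82. That of PAX5 was under the floor both there and in unstimulated cells, so it gave no direction. The part of these markers in the MCOLN2 values was not tested. Of 8 T- and NK-cell markers 1 to 3 were over the floor, with summed signals of 7299 to 8402 that were mostly NKG7 (7124 to 8196). The summed signals were 297 to 417 for 6 erythroid and megakaryocyte markers (2 to 5 over the floor), 5025 to 5758 for 8 fibroblast and endothelial markers (3 to 5; mostly PECAM1) and 916 to 1105 for 7 epithelial and melanocyte markers (2 to 4; mostly KRT18).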

How the data were processed

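Each of the 5 arrays held total RNA of MonoMac6 cells of 1 condition, and groups were taken from the sample titles. The labels do not say whether an array held a single culture or a pool. The deposited table gives 1 linear intensity per probe set and array; the authors used GCOS 1.4, per the submitters' processing notes, and no source used here names the signal algorithm. Genes were named from the platform annotation where a probe set had 1 symbol (41097 of 54675; 1801 had several and 11777 none), and 41043 of these matched the gene table (GRCh38.p14) by gene identifier.

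Signals were scaled by 1 factor per array, so that the median of the upper 50% of probe sets was equal, floored at 48.7 and taken to log2 (Python 3.11.15, numpy 2.4.6, pandas 2.3.3). Against a floored side a difference is a bound, written as at least N-fold. Differences of at least 2-fold were counted. Scaling was checked on simulated arrays with known differences put into bright probe sets, which does not cover signals near the floor. All member probe sets are described; of each list, genes past 2-fold on any array are named, at most 4, and also the 3 measured genes on each side of MCOLN2 and the 5 genes nearest to it in pattern; other genes named from the lists were chosen after their values were seen. The members and lists were chosen with earlier results of these data known. Alternatives changed the floor, the scaling, the reference array, the threshold and the probe set that stands for a gene. The number of arrays limits the precision.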

Additional observations from a re-analysis of the deposited data

How the results depend on the processing

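No paired analysis was possible because each condition has 1 array, and no array could be left out of a group. The leukotriene C4 difference of MCOLN2 stayed between 0.85 and 0.93 for 230110_at and between 0.73 and 0.82 for 1555465_at over the settings run, and was 0.87 as the mean of both probe sets. These are the values on which the gene was chosen. A change of floor could not move them, since the signals lay over the highest floor used (243). Of the differences and counts recomputed under the alternatives, 995 were labelled the same. For a difference this meant an unchanged 2-fold call and a move of at most 1.5-fold. For a count it meant an equal value, or nonzero values within a ratio of 1.5. Where both signals of a difference lay over the floors compared, a change of floor could not move it, so part of the 995 was fixed in advance. Another 46 moved further, 12 differences passed the threshold where they had not before, and 6 no longer passed it. Signs were less stable: 30 values changed sign, 14 of them with the median of the other 4 arrays as reference, 7 with the values as deposited, 5 as the mean of a gene's probe sets and 4 with quantile normalization. None of the 30 was past 2-fold either way, and the largest had been reported at 0.48. Of these 30, 29 were among the 995 labelled the same, so that label does not cover the sign. With the median reference MCOLN1 went to -0.19 with lipoxin A4 and TPCN1 217914_at to 0.07 with leukotriene C4.

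Member probe sets counted as higher with leukotriene B4 came to 0 with the floor at the 70th percentile, with a pseudocount of 16, with the values as deposited and at 3-fold. Those lower with leukotriene C4 came to 1 with the floor at the 30th percentile, with no floor, with the pseudocount and at 1.5-fold. Those lower with lipoxin A4 came to 0 with the median of the other 4 arrays as reference and at 3-fold. At 1.5-fold the counts were 3 lower with leukotriene B4, 3 higher with leukotriene C4 and 2 lower with lipoxin B4. The excess of leukotriene C4 over leukotriene B4 for MCOLN2 230110_at was 0.997 on the log2 scale with the values as deposited, just under 2-fold, and the lipoxin B4 against leukotriene C4 difference of 1555465_at was -0.84 with the floor at the 70th percentile, where lipoxin B4 lay under the floor.

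Counts of list genes past 2-fold in either direction depended on the floor. They were 7, 13, 9 and 9 (leukotrienes B4 and C4, then lipoxins A4 and B4) with the floor at the 30th percentile, 7, 13, 11 and 9 with no floor, and 6, 10, 8 and 6 with the pseudocount. With the floor at the 70th percentile they were 0 with leukotriene B4, 1 with leukotriene C4 and 0 with lipoxin B4. With the median of the other 4 arrays as reference they were 0, 3 and 0 for the same arrays, with the values as deposited 2 with leukotriene B4, and with quantile normalization 1 with lipoxin A4; with leukotriene C4 both scalings gave 4, against 5 as reported. The cause of these differences between scalings was not tested. Signals near the floor limit what can be said of TPCN1 1557185_at, MCOLN3 242308_at, RILP and MX1.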
